A study of Rattus norvegicus with 10 samples.

Results

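The genes described here are 38 members of the integrated stress response and the unfolded protein response, listed by name from what is known of the pathways, not by a measured threshold. They were sorted by role into 8 sensors and regulators of the translation factor eIF2, 5 stress transcription factors, 9 genes driven by Atf4, 12 chaperones of the endoplasmic reticulum (ER) and 4 genes of ER-associated degradation. Of the 38, 37 were among the 17168 genes of the deposited tables and 36 passed the filter on low counts that left 12161 genes. Trib3 did not pass it, and Edem1 was matched to no row. The samples were left hippocampi of 10 male TgF344-AD rats, which carry human transgenes of Alzheimer's disease behind a mouse prion promoter, all collected at 11 months of age. Of these rats, 5 ate plain chow (untreated), and 5 ate chow with 750 mg/kg of RG2833 for 6 months from 5 months of age. RG2833 inhibits the chromatin enzymes HDAC1 and HDAC3, which remove acetyl groups from histones. The comparison asked how gene expression differed between treated and untreated transgenic rats, and no group without the transgenes was analysed here. The design text names another drug, ibudilast, in 1 sentence on timing, whereas the title and the treatment labels of the 5 treated samples name RG2833, and these were followed. The other 5 samples are labelled No Treatment.

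The integrated stress response starts when a kinase such as PERK (Eif2ak3), GCN2 (Eif2ak4) or PKR (Eif2ak2) phosphorylates eIF2, which slows translation in general while favouring translation of the mRNA of Atf4, a transcription factor of amino acid and redox genes. The unfolded protein response is triggered by misfolded protein in the ER and acts through PERK and a further pair of sensors, Ern1 (IRE1) and Atf6, which raise transcription of ER chaperones and of the machinery that removes misfolded proteins. In the hippocampus, eIF2 phosphorylation is known as a brake on the protein synthesis that long-term memory needs. Much of this signalling acts through phosphorylation, splicing or cleavage of the sensors and of Xbp1 mRNA, which gene-level RNA counts do not show.

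Elements known from stress-induced promoters were searched at the starts of the members, and the matches most useful for comparing the chaperones with the Atf4-driven genes are shown. RefSeq promoters of the GRCr8 assembly, running from 250 bases before to 50 bases after a gene's start, were matched by symbol for 32 of the 38 members. Promoters of Manf, Ern1, Atf6, Pdia6, Pdia3 and Atf3 were not matched. The ER stress response element was searched on both strands as CCAAT and CCACG separated by 9 bases. Of 33469 promoters, 22 (0.0657%) held it, among them 6 of the 9 matched chaperones and Xbp1, and 0 of the 9 Atf4-driven genes; the other 3 matched chaperones did not hold it. The stretches of 5 of these 6 chaperones and of Xbp1 follow. In them, written along the gene's own strand, capitals mark the matched letters of the element, which read CGTGG and ATTGG where it lies on the other strand.
Hspa5: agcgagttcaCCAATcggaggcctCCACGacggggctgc
Hsp90b1: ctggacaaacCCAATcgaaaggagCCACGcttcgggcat
Hsp90b1, second match: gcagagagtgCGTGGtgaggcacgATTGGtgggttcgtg
Creld2: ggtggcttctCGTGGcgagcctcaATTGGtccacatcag
Dnajc3: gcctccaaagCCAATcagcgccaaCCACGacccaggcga
Calr: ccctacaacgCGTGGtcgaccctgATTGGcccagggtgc
Xbp1: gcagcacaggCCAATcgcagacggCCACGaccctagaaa

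The Hspa5 stretch lies at chr3:38452963-38453001 on the plus strand, with its element 43 to 25 bases upstream of the start. Those of Hsp90b1 are at chr7:23012441-23012479 and chr7:23012337-23012375 on the minus strand. The plus strand holds those of Creld2 (chr7:121789229-121789267), Dnajc3 (chr15:102432524-102432562), Calr (chr19:40213125-40213163) and Xbp1 (chr14:84604548-84604586). A second element, ATTGG and CCACG separated by 1 base, was in 17 promoters (0.0508%), of which Herpud1, a gene of ER-associated degradation, was the single member. The C/EBP-ATF response element, which Atf4 is known to bind, was searched as TGATG and AA separated by 1 base and was in 1332 promoters (3.98%). Among members it was in Chac1 and Trib3 (2 of the 9 Atf4-driven genes), Ppp1r15b and Herpud1, and in 0 of the 9 chaperones. The other 7 Atf4-driven promoters held none of the elements searched. The unfolded protein response element TGACGTG was in 605 promoters (1.81%), and Hspa5 was the single member with it. For Herpud1 the second ER element is shown, and for Chac1 and Trib3 the C/EBP-ATF element, which reads from the other strand in both.
Herpud1: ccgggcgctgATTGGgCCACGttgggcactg
Chac1: ttctccgccgTTgCATCActcctgctag
Trib3: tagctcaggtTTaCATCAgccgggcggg

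The Herpud1 stretch lies at chr19:10614811-10614841 and the Trib3 stretch at chr3:161275537-161275564, both on the minus strand, and the Chac1 stretch at chr3:126795954-126795981 on the plus strand. A match describes letters in the window and is not evidence of binding in these rats.

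Library totals ran from 15984400 to 18533500 counts in the untreated rats and from 15118200 to 17395700 in the RG2833 rats. Levels are given as counts per 1e6 counts (CPM) after scaling by trimmed mean of M-values (TMM), in replicate order 1 to 5. Each library is 1 rat, so the errors hold the spread between rats. Markers of hippocampal neurons (10 of 10 genes) had counts in every library. Some libraries stood apart in their cell type markers, whose mean is given as the average log2 difference from each gene's mean over 10 libraries. Choroid plexus markers averaged 4.68 in untreated replicate 2 and 4.86 in RG2833 replicate 1, against -2.63 to 0.45 in the other 8 libraries. Neuron markers averaged -0.85 in untreated replicate 3, against -0.25 to 0.33 in the others, with Prox1 at 4.30 CPM (21.5 to 50.5 CPM elsewhere) but Calb1, at 90.6 CPM, the highest of the 10 rats. In whole hippocampus, fewer cells of a type and less RNA per cell cannot be told apart.

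No member changed with RG2833 at an adjusted p under 0.05 in edgeR's quasi-likelihood test, and 0% of all 12161 genes did, the smallest adjusted p being 0.841. At an unadjusted p under 0.05, 1 of the 36 members (Atf5) passed, against 688 of all genes (5.66%). Of all genes, 2.94% passed as higher under RG2833 and 2.71% as lower. The groups overlapped for all 36 members, whereas 122 of all genes (1.00%) did not overlap. The members' median log2 fold change was 0.01, with 19 higher and 17 lower, beside -0.01 over all genes. The ER chaperones lay above 0 in 11 of 12, while the Atf4-driven genes were split, 4 higher and 4 lower, and 46.5% of all genes were higher.

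**Figure D1:**
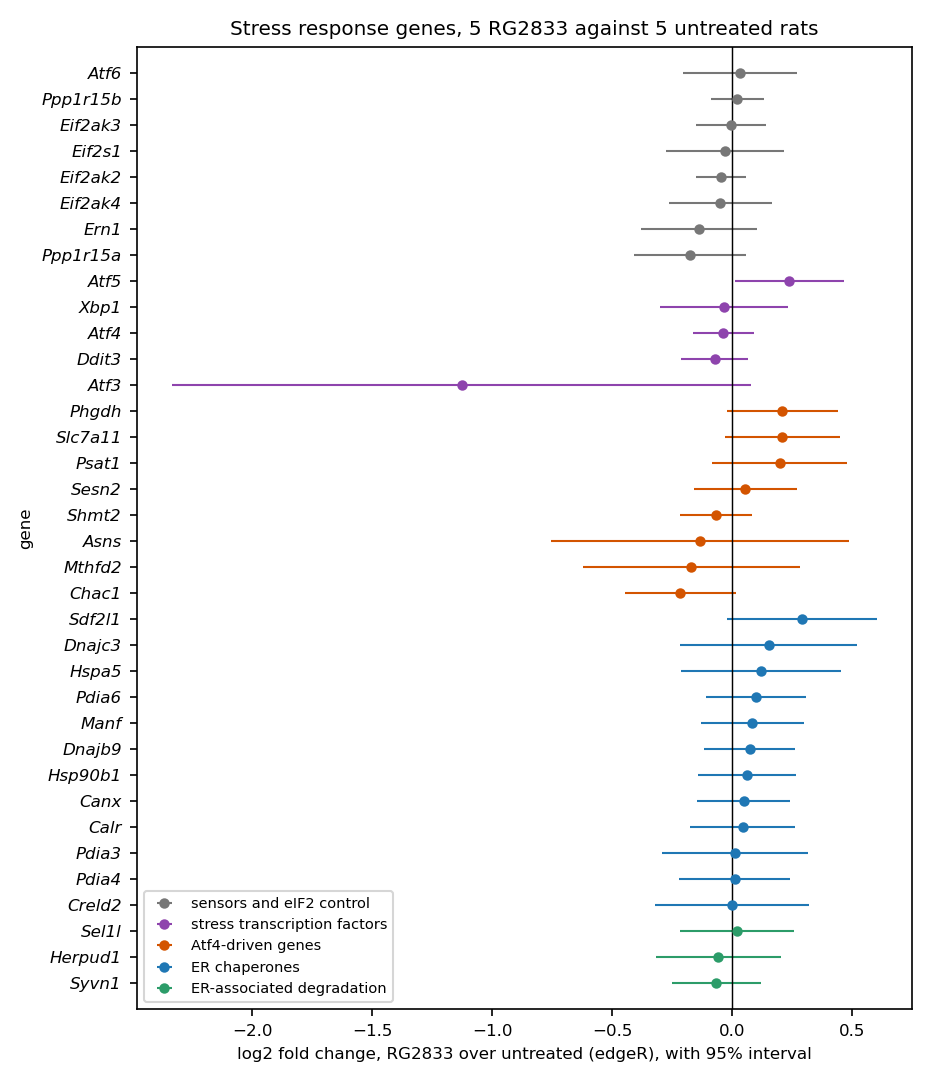
Log2 fold change of each of the 36 tested members, RG2833 over untreated (5 rats each), from edgeR; lines are 95% intervals and colours mark the role. Atf5 is the single member whose interval lies above 0, the intervals of the other 35 span 0, and Atf3 has the widest interval, -2.33 to 0.08.

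Among the sensors and eIF2 regulators, 2 were higher and 6 lower under RG2833, with a median log2 fold change of -0.04 and a range of -0.17 (Ppp1r15a) to 0.03 (Atf6). Eif2ak3, the PERK kinase of the ER membrane, was measured at 33.7, 32.3, 30.5, 32.6 and 30.3 CPM in the untreated rats and at 32.6, 34.4, 33.6, 29.1 and 29.3 CPM in the RG2833 rats. Its log2 fold change was -0.0048 with an SE of 0.07 (95% interval -0.15 to 0.14). RG2833 replicate 2 was above all untreated rats, RG2833 replicates 4 and 5 were below them all, and the other 2 lay among them. Eif2ak2, the kinase PKR that responds to double-stranded RNA, had a narrow spread, 40.7 ± 0.842 CPM in the untreated group and 39.5 ± 1.28 CPM in the RG2833 group (SD, n = 5 each). Eif2ak4, the amino acid sensor GCN2, differed by -0.05 (SE 0.10) on the log2 scale, and Eif2s1, the eIF2 subunit that these kinases phosphorylate, by -0.03 (SE 0.11).

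Ppp1r15a (GADD34), the stress-induced subunit that brings a phosphatase to eIF2, was at 28.4, 27.9, 37.4, 30.9 and 24.4 CPM in the untreated group and at 24.5, 27.7, 24.9, 26.2 and 28.7 CPM in the RG2833 group. The highest value was that of untreated replicate 3, and the other 9 rats were interleaved. Its log2 fold change was -0.17 (SE 0.11, unadjusted p = 0.130, adjusted p = 0.848), and was -0.08 without untreated replicate 3 and -0.07 with sample weights in limma-voom. Ppp1r15b, its constitutive counterpart, was 69.5 ± 2.73 CPM in the untreated group and 70.6 ± 2.32 CPM in the RG2833 group (SD, n = 5 each). Ern1, the kinase and nuclease that splices Xbp1 mRNA, was low in counts (69 to 104 per library) and was measured at 5.31, 5.33, 5.73, 5.69 and 4.67 CPM in the untreated group and 5.16, 4.37, 4.41, 4.88 and 5.46 CPM in the RG2833 group. Of the RG2833 rats, 2 were below all untreated rats and the rest overlapped them, and the log2 fold change was -0.14 (SE 0.11, adjusted p = 0.904). Atf6, the sensor that is cleaved to free a transcription factor, ranged from 36.1 to 51.5 CPM in the untreated group and from 40.6 to 51.3 CPM in the RG2833 group, a log2 difference of 0.03 (SE 0.11).

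Of the 5 stress transcription factors, 1 was higher and 4 were lower under RG2833, with a median log2 fold change of -0.04. Atf4 itself was at 168, 148, 160, 167 and 161 CPM in the untreated group and 150, 159, 148, 164 and 164 CPM in the RG2833 group. The rats of both groups spanned nearly the same levels, and the log2 fold change was -0.04 with a 95% interval of -0.16 to 0.09 (adjusted p = 0.958). At 2310 to 2973 counts per library, this was one of the narrower intervals of the set. Ddit3 (CHOP), a factor known for its part in stress-induced cell death, was at 24.0 ± 1.37 CPM in the untreated group and 22.8 ± 1.25 CPM in the RG2833 group (SD, n = 5 each). Its log2 fold change was -0.07 (SE 0.06, adjusted p = 0.919), and was -0.04 without RG2833 replicate 5. Xbp1, whose spliced mRNA encodes an activator of ER chaperone genes, ranged from 87.2 to 132 CPM in the untreated group and from 88.0 to 123 CPM in the RG2833 group, a log2 difference of -0.03 (SE 0.12). The counts do not separate the spliced form from the unspliced one.

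Atf5, a factor whose mRNA is translated under eIF2 phosphorylation like that of Atf4, was at 79.3, 86.6, 73.0, 85.5 and 95 CPM in the untreated group and at 87.4, 88.4, 99.6, 96.9 and 122 CPM in the RG2833 group. All 5 RG2833 rats were above 4 of the untreated rats, and untreated replicate 5 lay above 2 of the treated ones. The log2 fold change was 0.24 (SE 0.10, 95% interval 0.01 to 0.47), with an unadjusted p of 0.0419 and an adjusted p of 0.841 by edgeR. The two-sided exact permutation p over all 252 regroupings of the libraries was 0.0397. That p is also unadjusted and rests on the same values, so it is not separate support. Leaving out 1 rat at a time gave log2 fold changes from 0.15 (without RG2833 replicate 5, the highest rat) to 0.29 (without untreated replicate 5). With untreated replicate 3 and RG2833 replicates 4 and 5 left out together, which are the 3 libraries highest in astrocyte, microglia and endothelium markers, it was 0.08. With sample weights in limma-voom it was 0.13.

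Atf3, a factor induced by many stresses and also by injury and neuronal activity, was at 3.35, 6.81, 7.58, 12.4 and 1.47 CPM in the untreated group and at 2.13, 5.05, 1.34, 1.57 and 4.29 CPM in the RG2833 group. Its spread was the widest of the set, with 21 to 202 counts per library. Untreated replicates 2, 3 and 4 were above all RG2833 rats, while untreated replicates 1 and 5 lay among them. The log2 fold change was -1.13 (SE 0.55, adjusted p = 0.841), the exact permutation p was 0.167, and without untreated replicate 4 the log2 fold change was -0.74. With sample weights in limma-voom it was -0.50.

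**Figure D2:**
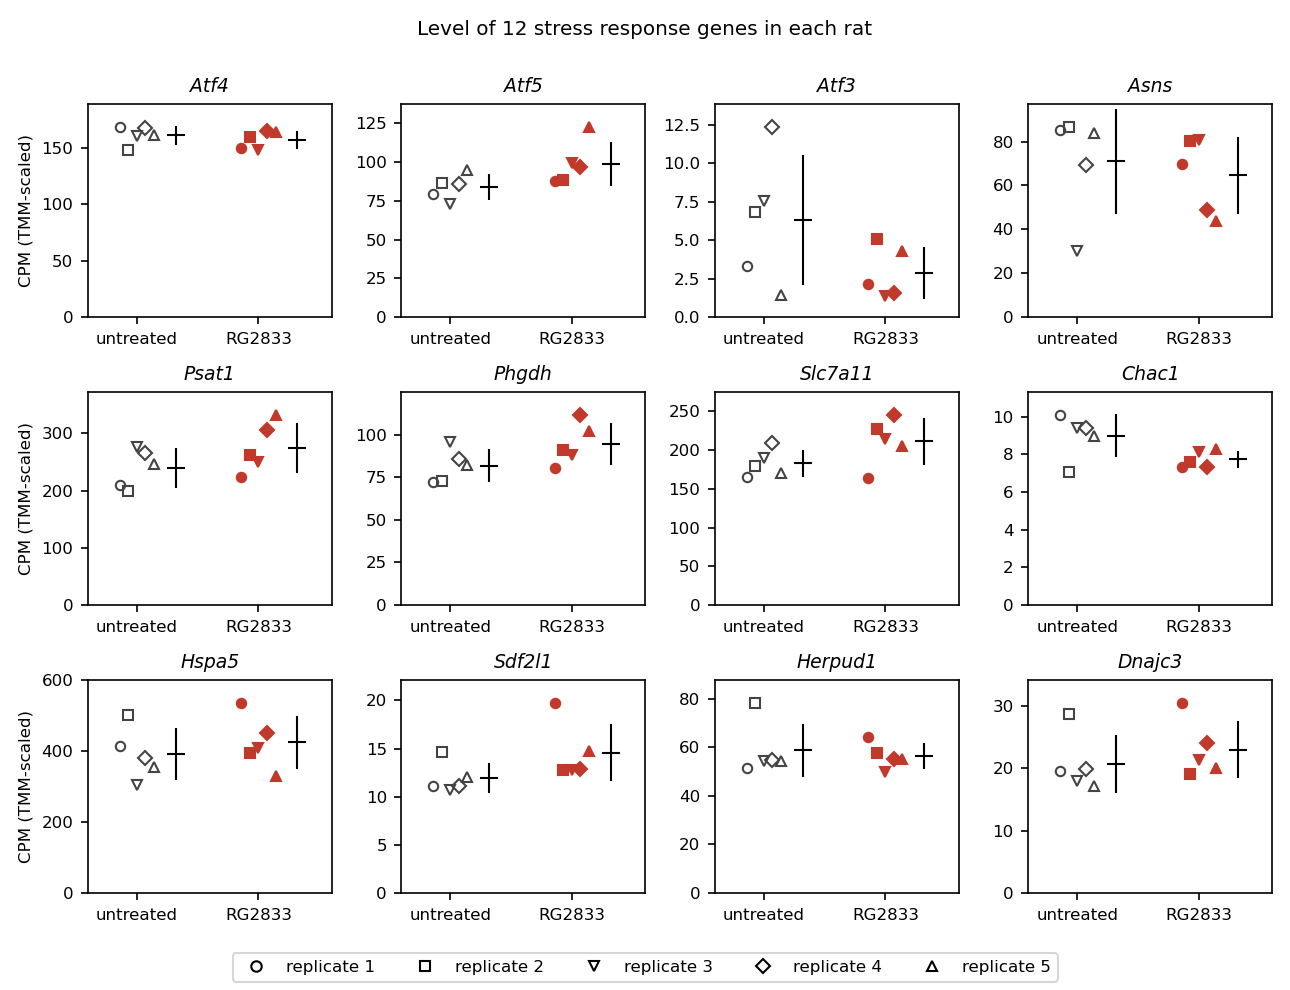
CPM of 12 members in every library, untreated (open) and RG2833 (filled), with the mean and SD of each group beside the points and the replicate number given by the shape. The groups overlap in all 12 panels: Atf5 runs from 73.0 to 95 CPM in the untreated group and from 87.4 to 122 CPM in the RG2833 group, and RG2833 replicate 1 is the highest rat for Hspa5, Sdf2l1 and Dnajc3.

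The 8 tested Atf4-driven genes had a median log2 fold change of -0.0057 and ran from -0.22 (Chac1) to 0.21 (Phgdh). The 3 with the highest fold changes were Phgdh, Slc7a11 and Psat1, none at an unadjusted p under 0.05. Psat1, an aminotransferase of serine synthesis, was at 210, 199, 277, 266 and 247 CPM in the untreated group and 224, 262, 250, 307 and 332 CPM in the RG2833 group. Phgdh, the first enzyme of that path, was at 72.5, 72.9, 95.5, 86.0 and 82.5 CPM in the untreated group and 80.4, 91.0, 88.1, 112 and 102 CPM in the RG2833 group. For both genes RG2833 replicates 4 and 5 were the highest rats and untreated replicates 1 and 2 the lowest.

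The log2 fold change of Psat1 was 0.20 (SE 0.13, unadjusted p = 0.151) and that of Phgdh 0.21 (SE 0.11, unadjusted p = 0.0722). Slc7a11, the cystine and glutamate exchanger that supplies glutathione synthesis, was at 165, 179, 190, 209 and 170 CPM in the untreated group and 163, 227, 215, 245 and 205 CPM in the RG2833 group. Of the RG2833 rats, 3 were above all untreated rats, and replicate 1 was below them all. The log2 fold change was 0.21 (SE 0.11, unadjusted p = 0.0801), and 0.29 without RG2833 replicate 1. The astrocyte markers (10 of 10 with counts in every library, summed 6089 to 9305 CPM in the untreated group and 7001 to 10453 CPM in the RG2833 group) were also higher under RG2833 in 10 of 10, with a median log2 fold change of 0.36, and 3 of them had an unadjusted p under 0.05, where 2.94% of all genes passed as higher. Their part in the levels of Psat1, Phgdh, Slc7a11 and Atf5 was not tested.

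Asns (asparagine synthetase) and Mthfd2 (mitochondrial folate metabolism), also Atf4-driven, did not share the order of Psat1 and Phgdh. Asns was at 85.1, 86.6, 30.0, 69.4 and 83.9 CPM in the untreated group and 69.8, 80.4, 80.8, 48.6 and 43.8 CPM in the RG2833 group. Mthfd2 was at 8.02, 5.74, 3.88, 6.67 and 7.65 CPM in the untreated group and 5.94, 6.47, 6.84, 4.38 and 4.77 CPM in the RG2833 group. For both genes the 3 lowest of the 10 rats were untreated replicate 3 and RG2833 replicates 4 and 5.

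The same 3 libraries were the 3 highest of 10 for Psat1 and Phgdh. Untreated replicate 3 held 0.37 times the mean Asns level of the other untreated rats and 1.2 times their mean Psat1 level. In all, 6 of the 36 members (16.7%) were lowest in these 3 libraries, beside 15.9% of all genes tested, and 2 (5.56%) were highest in them, beside 14.8%. These libraries also had the highest marker means for astrocytes (0.23, 0.44 and 0.44, against -0.40 to 0.15 in the others), for microglia (0.62, 0.22 and 0.31, against at most 0.03) and for endothelium (0.51, 0.31 and 0.61, against at most 0.01), and the lowest neuron marker means (-0.85, -0.25 and -0.25, against -0.02 to 0.33). Neuron markers summed to 4946 to 7215 CPM in the untreated group and 5457 to 7347 CPM in the RG2833 group, with none at 0, and what part these markers have in the order of the rats was not tested. Between groups, the log2 fold change of Asns was -0.13 with an SE of 0.28 (95% interval -0.75 to 0.49) and ran from -0.33 without untreated replicate 3 to -0.02 without RG2833 replicate 5, and was -0.0023 with 2 surrogate variables. That of Mthfd2, at 65 to 141 counts per library, was -0.17 (SE 0.20) and ran from -0.30 without untreated replicate 3 to -0.07 without untreated replicate 1. With the 3 libraries left out together, the log2 fold change was -0.08 for Asns, 0.09 for Psat1 and 0.14 for Phgdh.

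Chac1, which degrades glutathione, was at 10.1, 7.07, 9.43, 9.43 and 8.96 CPM in the untreated group and 7.36, 7.61, 8.12, 7.33 and 8.30 CPM in the RG2833 group, from 114 to 175 counts per library. The RG2833 rats were below 4 of the untreated rats and above untreated replicate 2. The log2 fold change was -0.22 (SE 0.10, unadjusted p = 0.0649), with an exact permutation p of 0.0714, and was -0.29 without untreated replicate 2. Shmt2, a mitochondrial serine enzyme, differed by -0.07 (SE 0.07), and Sesn2, an inhibitor of growth signalling under amino acid shortage, by 0.06 (SE 0.10). Trib3, a pseudokinase that restrains Atf4, was at the floor with 31 counts in all: 3, 8, 3, 3 and 3 in the untreated group and 4, 1, 3, 0 and 3 in the RG2833 group. The count of 0 in RG2833 replicate 4 allows up to 3 counts, or 0.188 CPM, counting error only, and no fold is given.

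Among the ER chaperones, 11 of 12 were higher under RG2833, with a median log2 fold change of 0.07 and a range of -0.00066 (Creld2) to 0.29 (Sdf2l1), but 0 of 12 had an unadjusted p under 0.05, beside 5.66% of all genes. The number higher was 7 of 12 without untreated replicate 3, 8 of 12 without RG2833 replicate 1 and 12 of 12 under 8 of the 21 alternatives, and 5 of the 12 changed sign under at least 1 of them. With 2 surrogate variables added to the fit, 7 of the 12 had an unadjusted p under 0.05, beside 15.1% of all genes, and Hspa5 had a log2 fold change of 0.22. Hspa5 (BiP), the chief chaperone of the ER lumen and the regulator of its sensors, was at 413, 501, 305, 379 and 355 CPM in the untreated group and 536, 396, 409, 452 and 331 CPM in the RG2833 group. The highest rats were RG2833 replicate 1 and untreated replicate 2, the lowest untreated replicate 3 and RG2833 replicate 5. Hspa5 had a log2 fold change of 0.12 with an SE of 0.15 (adjusted p = 0.946), and ran from 0.02 without RG2833 replicate 1 to 0.23 without untreated replicate 2.

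Sdf2l1, a cofactor of BiP, had the largest difference of the chaperones. It was at 11.1, 14.6, 10.7, 11.1 and 12 CPM in the untreated group and 19.7, 12.8, 12.8, 12.8 and 14.8 CPM in the RG2833 group. All 5 RG2833 rats were above 4 of the untreated rats, and untreated replicate 2 was above 3 of the RG2833 rats. For Sdf2l1 the log2 fold change was 0.29 (SE 0.14, 95% interval -0.02 to 0.60), the exact permutation p was 0.0556, and the log2 fold change without RG2833 replicate 1 was 0.16. Dnajc3, a BiP co-chaperone that also inhibits the eIF2 kinases, was at 19.5, 28.7, 18.0, 19.9 and 17.1 CPM in the untreated group and 30.5, 19, 21.3, 24.0 and 20.0 CPM in the RG2833 group. One rat of each group, untreated replicate 2 and RG2833 replicate 1, stood above the rest. For Dnajc3 the log2 fold change was 0.15 (SE 0.17), running from 0.03 without RG2833 replicate 1 to 0.30 without untreated replicate 2.

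The other chaperones had smaller differences. Hsp90b1 (GRP94), which folds receptors and integrins, was at 458, 527, 399, 457 and 435 CPM in the untreated group and 553, 456, 461, 479 and 428 CPM in the RG2833 group, a log2 difference of 0.06 (SE 0.09) that ran from 0.0030 without RG2833 replicate 1 to 0.12 without untreated replicate 2. The calcium-binding lectins that fold glycoproteins were at 583 ± 62.7 CPM (Calr) and 672 ± 69.9 CPM (Canx) in the untreated group and at 601 ± 64.9 and 695 ± 45.9 CPM in the RG2833 group (SD, n = 5 each), and both differed by 0.05 on the log2 scale (SE 0.10 and 0.09). Of the protein disulfide isomerases, Pdia3 differed by 0.01 (SE 0.14), Pdia4 by 0.01 (SE 0.11) and Pdia6 by 0.10 (SE 0.09). Without RG2833 replicate 1 they differed by -0.09, -0.07 and 0.02, in that order. Dnajb9, a co-chaperone that holds Ern1 inactive, differed by 0.07 (SE 0.09), running from 0.02 without untreated replicate 3 to 0.14 without untreated replicate 4. Manf, a secreted protein with neurotrophic activity, differed by 0.08 (SE 0.10), running from 0.04 without untreated replicate 4 to 0.14 without untreated replicate 2. Creld2 was at 13.4 ± 1.78 CPM in the untreated group and 13.4 ± 2.74 CPM in the RG2833 group (SD, n = 5 each), and its sign turned with the scaling, being 0.0031 with median-of-ratios size factors.

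Most of the chaperones were highest in the same rat of each group, but Dnajb9 was highest in untreated replicate 4 and RG2833 replicate 5. Untreated replicate 2 was the highest of its group for 10 of 12 chaperones and RG2833 replicate 1 the highest of its group for 10 of 12. For 9 of 12 (75%) both held, beside 11.6% of all genes tested and 2 of the 8 Atf4-driven genes. Untreated replicate 2 exceeded the mean of the other 4 untreated rats 1.38-fold for Hspa5, 1.38-fold for Pdia3 and 1.54-fold for Dnajc3. RG2833 replicate 1 exceeded the mean of the other 4 of its group 1.35-fold, 1.36-fold and 1.45-fold for the same genes. At the other end, untreated replicate 3 was the lowest of its group for 9 of 12 chaperones and RG2833 replicate 5 for 8 of 12. The share of all genes lowest in these rats was not counted, so these counts are a description and not a trait of chaperones.

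The pair of libraries highest in chaperones was also the pair highest in choroid plexus markers, an epithelium of the ventricle wall that secretes cerebrospinal fluid. Those markers summed to 32.5 to 7943 CPM in the untreated group and 13.6 to 9293 CPM in the RG2833 group. Transthyretin (Ttr), the most abundant of them, was at 6929 CPM in untreated replicate 2 and 8190 CPM in RG2833 replicate 1. Of the 10 markers, Folr1 was at 0 in RG2833 replicate 5, and the other 9 had counts in all 10 libraries. The part of choroid plexus RNA in the chaperone levels was not tested. With both libraries left out, 10 of 12 chaperones were higher under RG2833, with a median log2 fold change of 0.04 and a range of -0.02 to 0.23. In that fit Sdf2l1, Chac1, Slc7a11 and Atf5 had unadjusted p under 0.05, at log2 fold changes of 0.23, -0.28, 0.27 and 0.28, beside 4.90% of the 12152 genes of that fit, and no adjusted p was under 0.05.

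**Figure D3:**
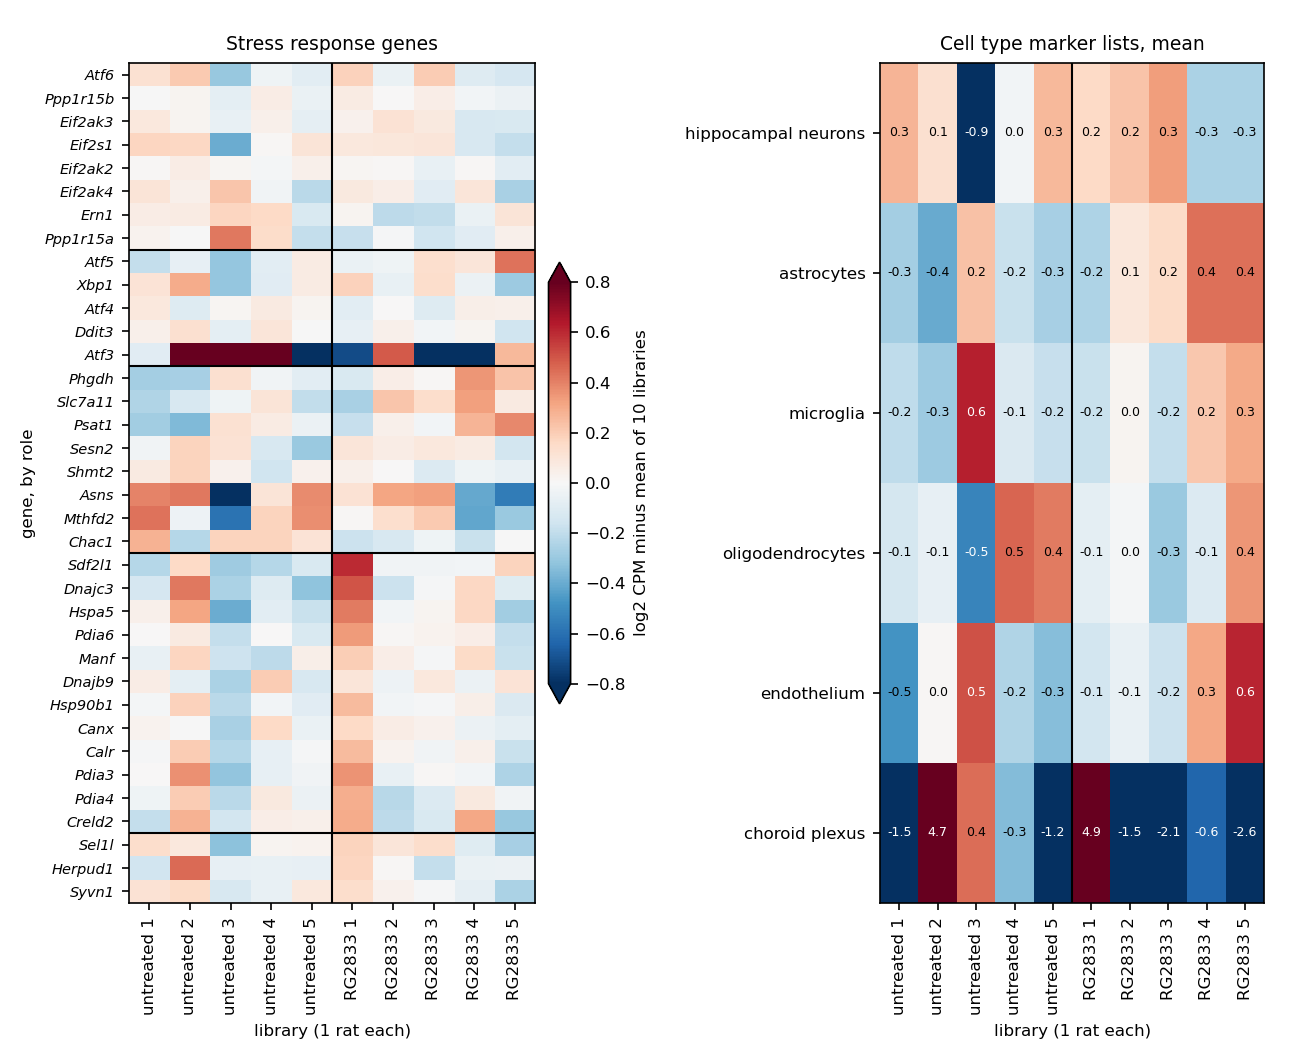
Log2 CPM minus the gene's mean over the 10 libraries for the 36 tested members, ordered by role (left), and the same averaged over 6 cell type marker lists (right). Untreated replicate 2 and RG2833 replicate 1 are high for most chaperones and for choroid plexus (4.68 and 4.86), whereas Asns and Mthfd2 are low in untreated replicate 3 and RG2833 replicates 4 and 5; colours stop at 0.8 in either direction.

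In ER-associated degradation, 1 gene was higher and 2 were lower under RG2833. Herpud1, an ER membrane protein of the degradation complex, was at 51.5, 78.3, 54.6, 54.7 and 54.6 CPM in the untreated group and 64.4, 57.6, 49.95, 55.1 and 55.2 CPM in the RG2833 group. Apart from untreated replicate 2 and, less so, RG2833 replicate 1, the rats lay close together. Its log2 fold change was -0.06 (SE 0.12) and was 0.07 without untreated replicate 2. Sel1l, the scaffold of the same complex, ranged from 98.7 to 137 CPM in the untreated group and from 103 to 140 CPM in the RG2833 group, a log2 difference of 0.02 (SE 0.11). Syvn1, its ubiquitin ligase, differed by -0.07 (SE 0.08), running from -0.11 without RG2833 replicate 1 to -0.01 without RG2833 replicate 5.

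The Atf4-driven genes and the chaperones were set against each other by their mean log2 deviation in each rat. The mean log2 deviation of the 8 Atf4-driven genes was -0.01 ± 0.08 in the untreated group and 0.01 ± 0.07 in the RG2833 group (SD, n = 5 each). That of the 12 chaperones was -0.04 ± 0.16 and 0.04 ± 0.17. For both sets of genes the difference between treatments was smaller than 1 SD of the rats. RG2833 replicate 1 had the highest chaperone mean, 0.31, and an Atf4-driven mean of -0.06. Untreated replicate 2 had 0.19 and -0.03. Untreated replicate 3 was the lowest in both, at -0.24 for chaperones and -0.14 for Atf4-driven genes. In that rat 5 of the 8 Atf4-driven genes still lay above their mean over all rats, against 0 of the 12 chaperones. Its Atf4-driven mean held Asns at -1.10 and Mthfd2 at -0.59, the lowest of the 8.

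**Figure D4:**
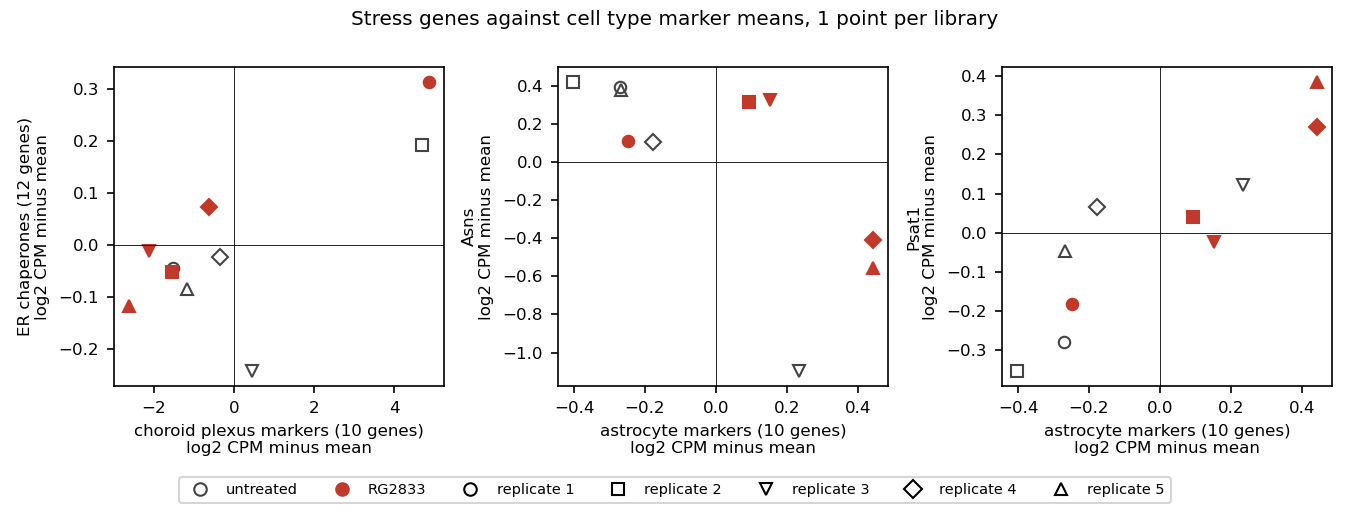
Mean of the 12 ER chaperones against choroid plexus markers (left), and Asns (middle) and Psat1 (right) against astrocyte markers, as log2 CPM minus the mean over libraries, 1 point per rat. Untreated replicate 2 and RG2833 replicate 1 stand apart at the upper right of the left panel (chaperones 0.19 and 0.31), and the 3 rats highest in astrocyte markers are the lowest for Asns and the highest for Psat1.

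No gene of the wider pathways had an adjusted p under 0.05. Of 40 further genes of the integrated stress response, 37 were tested, 12 higher and 25 lower, with a median log2 fold change of -0.03. Of 47 further genes of ER folding and degradation, 44 were tested, 21 higher and 23 lower, with a median of -0.0019. At an unadjusted p under 0.05 were 3 genes of the first list and 2 of the second, with adjusted p of 0.841 for all 5. They were 6.17% of the 81 genes tested, near the 5.66% of all genes, and their values are given as a description. Slc3a2, the heavy chain that pairs with Slc7a11 in the cystine exchanger, was at 196, 217, 242, 200 and 198 CPM in the untreated group and 226, 234, 233, 266 and 264 CPM in the RG2833 group. Only untreated replicate 3 lay among the treated rats, and the log2 fold change was 0.21 (SE 0.08, unadjusted p = 0.0209). As for Psat1 and Phgdh, the 3 highest rats were untreated replicate 3 and RG2833 replicates 4 and 5. The part of the cell type markers in this order was not tested.

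Pycr1, a proline synthesis enzyme, was 3.02 ± 0.411 CPM in the untreated group and 2.24 ± 0.361 CPM in the RG2833 group (SD, n = 5 each), a log2 difference of -0.43 (SE 0.16). Nupr1, a stress-induced chromatin factor, was 2.52 ± 1.64 and 1.31 ± 0.246 CPM, a log2 difference of -0.94 (SE 0.38). Untreated replicate 2 held 5.28 CPM of Nupr1 against 1.25 to 2.75 CPM in the other untreated rats, and without it the log2 difference was -0.48. Sec63, of the channel that brings proteins into the ER, was 130 ± 7.95 and 144 ± 6.21 CPM, and Ostc, of the complex that attaches sugars to them, 27.1 ± 1.16 and 30.0 ± 2.46 CPM, each a log2 difference of 0.15. The unadjusted edgeR p was 0.0262 for Sec63 (SE 0.06) and 0.0499 for Ostc (SE 0.07). Leaving out 1 rat at a time gave 0.12 to 0.17 for Sec63. For Ostc it gave 0.10 (without RG2833 replicate 1) to 0.19 (without RG2833 replicate 5). For 20 of the 44 ER genes (45.5%), untreated replicate 2 and RG2833 replicate 1 were both the highest of their groups, as they were for 9 of the 12 chaperones. Both held for 11.6% of all genes tested and for 4 of the 37 genes (10.8%) of the wider integrated stress response list.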

How the data were processed

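RNA sequencing of 10 left hippocampi, 1 library per rat, was taken as deposited. The first table holds the authors' RSEM expected counts per gene, 11.6% of them not whole, which were rounded. The second holds the authors' TMM-normalized CPM, a signal per gene. In it 100% of values were whole multiples of 1 read (tolerance 0.01), and the recovered reads equalled the rounded counts; the same count test on them called 0 genes. The submitters' processing notes name bcl2fastq 2.17, Bowtie2 2.1.0, RSEM 1.2.15, edgeR and rn6; the gene annotation and strand setting are not given in the sources used here, though the labels' protocols name a strand-specific kit. Counts were fitted with edgeR 4.0.16 in R 4.3.3: filterByExpr (minimum count 10, minimum total 15; 12161 of 17168 genes, 70.8%), TMM scaling, and the robust quasi-likelihood F test of RG2833 against untreated, with Benjamini-Hochberg adjustment over all genes tested at a threshold of 0.05. Intervals are at 95%. Log2 CPM used a prior count of 2. Exact permutation tests were two-sided over 252 regroupings, whose smallest p is 0.00794. Scripts were tested on simulated data. Alternatives used limma 3.58.1, DESeq2 1.42.0 and sva 3.50.0.

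The members, roles, wider lists and marker lists were chosen with earlier results of these data known. All members are accounted for by role, and of the wider lists those at an unadjusted p under 0.05 were named; Asns, Mthfd2, Psat1 and Phgdh were grouped by their order over rats after their values were seen. Between treatments, microglia markers were higher in 7 of 10 genes (median log2 fold change 0.06; summed 612 to 1126 CPM in untreated and 655 to 914 CPM in RG2833 rats), oligodendrocytes in 2 of 10 (-0.12), endothelium in 8 of 9 (0.25), choroid plexus in 6 of 10 (0.15) and hippocampal neurons in 3 of 10 (-0.03). The choroid plexus median has no clear direction, as the median SE of these markers was 1.72. Their mean log2 deviation was 0.41 ± 2.51 in untreated and -0.41 ± 3.04 in RG2833 rats (SD, n = 5 each). Promoter sequences are from RefSeq (GRCr8) and were matched to the tables by symbol alone. Not every matched stretch is reported here.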

Additional observations from a re-analysis of the deposited data

Results flagged for a closer look

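In 4 members a single rat stood apart within its group, with its gap to the nearest rat taking more of the group's range than Dixon's 95% critical value of 0.71 for 5 samples. Of 72 sets of 5 tested (36 members in 2 groups), 4 passed, where chance gives about 3.6. In untreated replicate 2, Herpud1 reached 78.3 CPM while the remaining untreated rats had 51.5 to 54.7 CPM, a ratio of 0.878, and Dnajc3 was 28.7 CPM against 17.1 to 19.9 CPM, a ratio of 0.760. In untreated replicate 3, Sel1l was 98.7 CPM against 126 to 137 CPM, a ratio of 0.726. In RG2833 replicate 5, Sesn2 was 16.0 CPM against 18.5 to 19 CPM, a ratio of 0.824.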

How the results depend on the processing

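No member had an adjusted p under 0.05 under any of the alternatives run. Over all genes, DESeq2 called 7, edgeR with 2 surrogate variables added called 43, and every other fit called 0. Members at an unadjusted p under 0.05 numbered 1 in the reported fit, 2 with DESeq2 (Atf5, Atf3; 6.16% of all genes), 2 with sample weights in limma-voom (Chac1, Phgdh; 10.4%), 10 with 2 surrogate variables (Ppp1r15a, Chac1, Phgdh, Hspa5, Hsp90b1, Pdia3, Pdia6, Calr, Dnajc3, Sdf2l1; 15.1%), 4 without untreated replicate 2 and RG2833 replicate 1 together (4.90%), and 0 without untreated replicate 3 and RG2833 replicates 4 and 5 together (5.37%), the last chosen after seeing the data. With a replicate block they numbered 2 (Atf5, Slc7a11; 3.30%); same-numbered rats correlated at -0.49 to -0.03 and none matched its own number best, so the numbers do not pair the rats. Leaving out 1 rat at a time gave 0 to 3 members (3.07% to 14.2% of all genes), and Atf5 lost its unadjusted p without any 1 of untreated replicates 1 to 4 or RG2833 replicates 3 to 5, at log2 fold changes of 0.15 to 0.25. The sign turned under at least 1 alternative for 13 of 36 members (5 of the 12 chaperones), namely Creld2 (0.0031 with median-of-ratios factors and without the filter, 0.0026 with DESeq2, 0.073 with surrogate variables, -0.081 to 0.074 leaving out 1 rat), Eif2ak3 (0.032 with sample weights, 0.0045 with surrogate variables, 0.054 without the 3 rats, -0.035 to 0.029 leaving out 1), Xbp1 (0.033 with surrogate variables, -0.106 to 0.041 leaving out 1), Herpud1 (0.033 with surrogate variables, 0.0094 without the 2 rats, -0.109 to 0.068 leaving out 1), Sel1l (-0.0057 without the 2 rats, -0.049 to 0.088 leaving out 1), Atf6 (-0.031 to 0.093 leaving out 1), and, at their farthest, Pdia3 (-0.086), Pdia4 (-0.069) and Calr (-0.016) without RG2833 replicate 1, Canx (-0.0060) without untreated replicate 3, Sesn2 (-0.0035) without untreated replicate 5, Eif2s1 (0.015) without RG2833 replicate 5 and Eif2ak4 (0.050) with sample weights; the cause was not tested. The median log2 fold change ran from -0.04 to 0.05 for the 8 Atf4-driven genes (-0.06 without the filter, which adds Trib3, and -0.07 with Atf3, Atf5, Ddit3 and Ppp1r15a added) and from 0.02 to 0.12 for the chaperones. Low counts limit Trib3, Atf3, Ern1, Mthfd2 and Chac1.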

Other observations

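Aminoacyl-tRNA synthetases load amino acids onto tRNAs and include known Atf4 targets. Of the 9 synthetase genes of the wider list, 7 (77.8%) were lowest in untreated replicate 3 and RG2833 replicates 4 and 5, beside 15.9% of all genes tested; the set was picked out after its values were seen. They were Aars, Sars, Wars, Nars, Mars, Lars and Tars, while Eprs and Cars did not follow (Cars 45.5 to 52.6 CPM in those 3 rats and 44.1 to 52.0 CPM in the other 7). Sars was at 123 to 131 CPM in those 3 rats and 143 to 164 CPM in the other 7, and Nars at 139 to 151 CPM against 160 to 189 CPM. Marker means of astrocytes (0.23, 0.44 and 0.44), microglia (0.62, 0.22 and 0.31) and endothelium (0.51, 0.31 and 0.61) were highest and neuron marker means lowest (-0.85, -0.25 and -0.25) in the same 3 rats, and their part in these levels was not tested. Of the 37 tested genes of the wider integrated stress response list, 11 (29.7%) were lowest in these 3 rats, and without the synthetases 4 of 28 (14.3%). Highest in the same rats were 6 of the 37 (16.2%), beside 14.8% of all genes tested, and without the synthetases 6 of 28 (21.4%).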
